A study of Homo sapiens with 12 samples.

Results

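The genes described here are 10 genes of autophagy, namely the cargo receptors SQSTM1 and NBR1, the ATG8 family members MAP1LC3B, GABARAPL1 and GABARAPL2, the initiation genes ULK1, BECN1, WIPI1 and ATG5, and the transcription factor TFEB. They were chosen by name out of 57736 genes in the count tables. The rule uses no measured value, but the choice was made with earlier results of these data known. RNA from human HepG2 liver cancer cells and Ls174 colon cancer cells was sequenced after 24 h with 0.7 mg/ml of an extract of the red seaweed Hypnea musciformis (HME), or without treatment, in 3 biological replicates of each of the 4 groups, giving 12 libraries. Both lines are unmodified (wild type in the sample labels), were maintained in DMEM with fetal bovine serum and antibiotics, and each is the only line for its tissue here. The study applied HME without serum in its toxicity and cell death assays. It does not state whether serum was present during the treatment for RNA. The concentration is that of the sample labels, the study's methods give a slightly higher one, and it was chosen from the toxicity of the extract to these lines. The comparisons asked how each line responded to HME and how the lines differed.

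Autophagy encloses cytoplasmic material in a double membrane and delivers it to the lysosome for breakdown. The ULK1 kinase starts the process, the lipid kinase complex that holds BECN1 marks the site, WIPI1 binds the lipid made there, and ATG5 is part of the enzyme that couples ATG8 proteins to the growing membrane. SQSTM1, also called p62, and NBR1 bind ubiquitin-tagged cargo on one side and ATG8 proteins on the other, SQSTM1 is itself consumed with its cargo, and TFEB switches on many genes of autophagy and the lysosome. Transcript levels do not measure the flux of autophagy, and no protein was analysed here.

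SQSTM1 was the member that rose in both lines, 4.24-fold in HepG2 and 3.23-fold in Ls174 cells as ratios of group means. GABARAPL1 rose 5.33-fold in HepG2 cells and had a ratio of 1.15 in Ls174 cells. This difference between the lines itself passed the test in the main fit, but in only 10 of 21 alternatives. MAP1LC3B was higher with HME in every library of both lines, by ratios of 2.20 and 1.35, without passing an adjusted p under 0.05. The initiation genes, NBR1, GABARAPL2 and TFEB did not pass it in either line.

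The promoter windows of SQSTM1, GABARAPL1 and MAP1LC3B are shown because these are the members with the 3 highest log2 fold changes in HepG2 cells. Each window runs from 250 bases before to 50 bases after the start of a RefSeq transcript on assembly GRCh38.p14, which is not the assembly of the counts (GRCh37). Capitals mark matches, on either strand, to 4 sequences searched in all windows: CACGTG (the E-box bound by TFEB and its relatives), TGACNNNGC (the core of the antioxidant response element), TGAGTCA (an AP-1 site) and TGACGTCA (a cAMP response element). The SQSTM1 window lies at chr5:179820655-179820954, the GABARAPL1 window at chr12:10212627-10212926 and the MAP1LC3B window at chr16:87392086-87392385, all on the plus strand. SQSTM1 has 3 windows in RefSeq, and the one shown is the most downstream.
SQSTM1: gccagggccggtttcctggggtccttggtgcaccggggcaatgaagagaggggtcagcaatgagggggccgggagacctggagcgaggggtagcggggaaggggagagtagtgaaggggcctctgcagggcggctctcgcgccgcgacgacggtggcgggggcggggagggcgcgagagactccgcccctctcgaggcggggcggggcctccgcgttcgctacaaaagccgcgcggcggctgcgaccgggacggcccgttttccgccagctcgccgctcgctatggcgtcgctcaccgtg
GABARAPL1: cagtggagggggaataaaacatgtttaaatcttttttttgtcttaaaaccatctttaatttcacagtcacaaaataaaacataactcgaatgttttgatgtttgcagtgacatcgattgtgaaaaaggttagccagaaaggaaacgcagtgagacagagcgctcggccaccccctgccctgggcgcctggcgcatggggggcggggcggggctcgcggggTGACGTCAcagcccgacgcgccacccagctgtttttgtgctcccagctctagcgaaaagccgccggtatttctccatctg
MAP1LC3B: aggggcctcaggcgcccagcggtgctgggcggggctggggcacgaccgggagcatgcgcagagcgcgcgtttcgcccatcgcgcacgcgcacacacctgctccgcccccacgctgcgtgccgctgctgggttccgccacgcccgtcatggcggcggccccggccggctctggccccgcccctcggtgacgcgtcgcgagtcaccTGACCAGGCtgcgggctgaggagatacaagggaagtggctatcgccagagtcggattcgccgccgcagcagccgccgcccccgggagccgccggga

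All 10 members had an entry, with 16 windows in all. TGACNNNGC was found in 13.3% of the 35116 human windows and, among the members, in that of MAP1LC3B, starting 46 bases upstream of the transcript start. TGACGTCA was found in 1.85% of all windows and, among the members, in that of GABARAPL1, 30 bases upstream. CACGTG (7.26% of all windows) and TGAGTCA (4.95%) were in 0 of the 16 member windows. The 2 member matches lie in different windows and overlap no other motif searched. They are matches of letters within 300 bases, and no binding was measured. The GC content of the windows shown was 73.0% for SQSTM1, 75.7% for MAP1LC3B and 51.7% for GABARAPL1.

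Reads came from the 3′ ends of polyadenylated RNA, so that longer transcripts do not gain counts and levels can be set beside each other as CPM, counts scaled to a common library size with TMM factors over the 12 libraries. Total counts ranged from 1790841 to 3656662 per library, and 3 counts, taken as the floor, correspond to between 0.768 and 1.87 CPM. Replicate 2 of the HepG2 controls and replicate 1 of the Ls174 controls stood apart from the other controls of their line: the root mean square log2 difference over genes was 1.18 and 1.18 for the first and 1.22 and 1.25 for the second, against 0.633 and 0.481 between the other 2 controls. No pair of replicates agreed within sampling noise. The summed CPM of 6 liver markers was 9584 to 16649 in HepG2 and 0.0 to 90.6 in Ls174 libraries. MUC2 and CEACAM5, of 6 colon markers, were at 0 counts in all HepG2 libraries, while the summed CPM of the colon list overlapped between the lines (57.3 to 193 in HepG2, 111 to 299 in Ls174). In bulk RNA of treated cultures, fewer cells of one kind and less RNA per cell cannot be told apart.

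**Figure D1:**
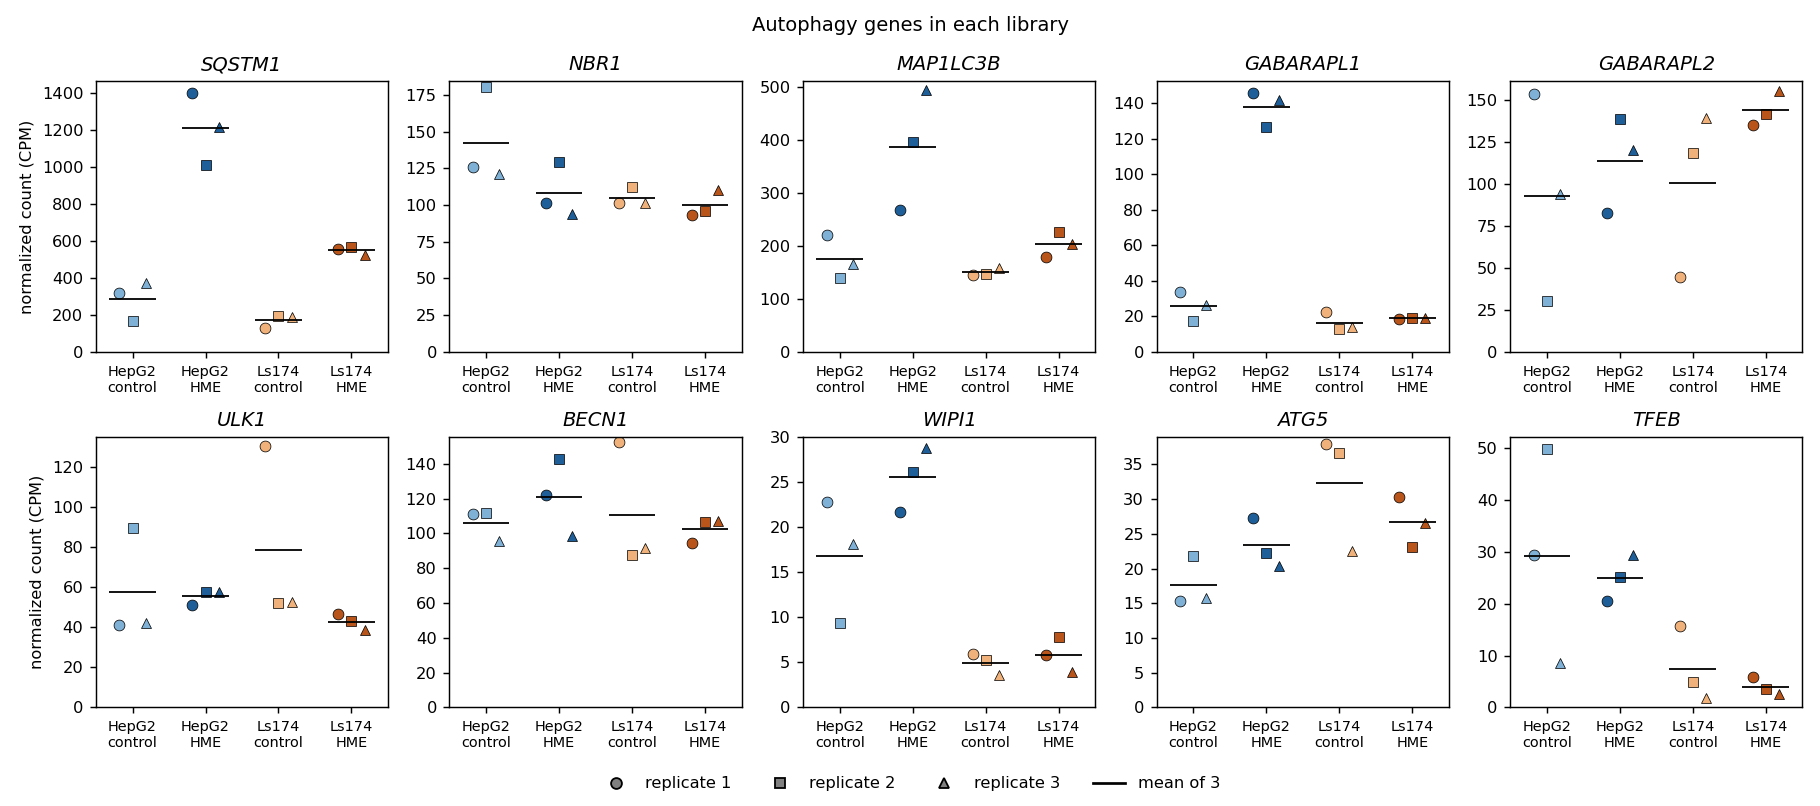
Normalized count (CPM, linear axes from 0, a separate scale for each gene) of the 10 autophagy genes in each library, with symbols for replicate numbers and a bar for the mean of 3. SQSTM1 and MAP1LC3B were higher in all HME than in all control libraries of both lines, and GABARAPL1 in HepG2 cells. ULK1 was lower in all HME libraries of Ls174 cells. The treated HepG2 libraries lay at 127 to 146 CPM of GABARAPL1 against 17.4 to 33.6 in their controls.

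SQSTM1 had the highest mean of the members in all 4 groups. In HepG2 controls it measured 321, 164 and 371 CPM in replicates 1 to 3, and with HME it measured 1402, 1009.6 and 1217 CPM. Even the lowest treated library lay well above the highest control. The mean was 286 ± 108 CPM (SD, n = 3) without and 1209.8 ± 196 CPM with HME, or 2.11 as a log2 fold change (SE 0.37, adjusted p = 0.0165). Adjusted p values throughout are Benjamini-Hochberg values over all tested genes from the quasi-likelihood test of edgeR. In Ls174 controls SQSTM1 measured 128, 192 and 191 CPM, and with HME 559, 567 and 526 CPM. The groups did not overlap here either, and the treated libraries differed little among themselves (551 ± 21.5 CPM against 170 ± 36.8 CPM). The log2 fold change was 1.69 (SE 0.22, adjusted p = 0.0249), and SQSTM1 ranked 16 by p among 11319 genes in Ls174 cells and 155 among 11343 genes in HepG2 cells. The responses of the lines differed by -0.39 on the log2 scale (Ls174 minus HepG2, SE 0.44, adjusted p = 0.789), so that a difference was not shown.

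The low control of each line, the library that stood apart, held the lowest SQSTM1 value, at 0.475 and 0.667 times the mean of the other 2 controls. Without it the log2 fold change was 1.87 in HepG2 (adjusted p = 0.00325) and 1.53 in Ls174 cells (adjusted p = 3.25e-05). The call was lost in HepG2 cells without HME replicate 1 (adjusted p = 0.0781) or HME replicate 3 (0.0795). These 2 fits called 144 and 95 of all genes, against 375 in the main fit. In Ls174 cells it was lost without control 2 (0.0956), control 3 (0.0592), HME 1 (0.146), HME 2 (0.258) or HME 3 (0.223), with log2 fold changes of 1.67 to 1.78 in these fits. The Ls174 call was also lost with the replicate number as a block, a fit that called 0 of all genes in these cells.

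With HME, SQSTM1 made up a larger share of the set. It supplied 20.2% to 38.7% of the summed CPM of the 10 members in HepG2 controls and 48.7% to 62.5% with HME. In Ls174 cells the share was 16.3% to 25.0% without and 44.1% to 47.8% with HME. In the 2 controls that stand apart it was not the largest: NBR1 held 22.1% in HepG2 control 2, and BECN1 (19.4%), MAP1LC3B (18.5%) and ULK1 (16.7%) were above it in Ls174 control 1. The summed CPM of all 10 ranged from 815 to 1074 in HepG2 controls and from 2075 to 2302 with HME, and from 770.5 to 784 and from 1169 to 1234 in Ls174 cells.

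The SQSTM1 count came almost whole from the 3′ end of the gene. Of 17160 counts, 96.0% fell in 1 region at chr5:179263594-179265275 (GRCh37, plus strand), of whose bases 88.3% are annotated as 3′ untranslated region. The antisense gene C5orf45 overlaps this region and had 431 counts in its own overlapping regions, against 16475 for SQSTM1. How the authors treated strand is not given in the sources used here, so a small exchange of reads cannot be told apart. A processed pseudogene, SQSTM1P1, was listed with 0 counts.

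By a rule of likeness over the 12 libraries, the genes whose centred log2 CPM lay nearest to SQSTM1 were GCLC (root mean square difference 0.346), C6orf1 (0.366) and a gene with a clone name only (0.464). GCLC, which encodes the catalytic subunit of glutamate-cysteine ligase in glutathione synthesis, measured 36.1 to 47.9 CPM in HepG2 controls and 192 to 275 CPM with HME. Ls174 cells held 31.5 to 45.3 CPM without and 67.0 to 102 CPM with HME. C6orf1 measured 11.2 to 28.2 CPM and 88.7 to 114 CPM in the HepG2 groups, and 14.8 to 27.4 CPM and 37.5 to 41.7 CPM in the Ls174 groups. The libraries share treatment, line and depth, so that this likeness is a description of 12 points.

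NBR1, the other cargo receptor among the members, did not pass the test in either line. It measured 126, 180 and 121 CPM in HepG2 controls and 101, 129 and 93.7 CPM with HME, which overlap (log2 fold change -0.40, SE 0.32, adjusted p = 0.493). Ls174 cells held 101, 112 and 101 CPM without and 92.9, 96.0 and 110 CPM with HME (log2 fold change -0.08, SE 0.18, adjusted p = 0.866). SQSTM1 and NBR1 thus stood at mean levels of 286 and 142 CPM in untreated HepG2 cells and at 1209.8 and 108 CPM in treated ones.

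GABARAPL1, an ATG8 protein that binds receptors such as SQSTM1 on the forming membrane, responded in HepG2 cells. It measured 33.6, 17.4 and 26.7 CPM in their controls and 146, 127 and 142 CPM with HME. The treated values were close together and far above every control (138 ± 10.2 against 25.9 ± 8.11 CPM). The log2 fold change of 2.42 (SE 0.33, adjusted p = 0.00466) ranked 72 by p among 11343 genes, and the call held in all 16 alternatives, with adjusted p up to 0.0346. In Ls174 cells the controls measured 22.6, 13.0 and 13.8 CPM and the treated cells 18.6, 19.2 and 19.1 CPM. These groups overlap, with the first control above all treated libraries (log2 fold change 0.21, SE 0.30, adjusted p = 0.792).

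The response of GABARAPL1 was smaller in Ls174 than in HepG2 cells (log2 difference -2.18, SE 0.42, adjusted p = 0.0311). This was the only one of the 10 members past the test of the interaction by edgeR, where 0.613% of 13040 genes were called with a lower response in Ls174 cells. Among the members 0 were called with a higher response (0.0307% of all genes), and 1 member had an unadjusted p under 0.05 (13.2% of all genes). By DESeq2 the count was again 1 lower and 0 higher, beside 380 of 13040 genes in either direction. With library size as the only scaling the adjusted p was 0.069, and it was also over 0.05 without HepG2 control 3, HME 1, 2 or 3, or without Ls174 control 2, 3, HME 1, 2 or 3 (0.0533 to 0.125). The call was lost as well with the replicate number as a block. Without both controls that stand apart, an alternative chosen after the data were seen, the difference was -1.67 (adjusted p = 0.00785). Of the 1487 counts of the gene, 99.7% fell in 1 region at chr12:10374386-10375924 (GRCh37, plus strand), and the related GABARAPL3 had 8 counts in all libraries.

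MAP1LC3B encodes LC3B, the ATG8 protein most used as a marker of autophagosomes. It measured 220, 140 and 166 CPM in HepG2 controls and 269, 397 and 494 CPM with HME. The groups did not overlap, but the treated libraries spread widely (387 ± 113 against 176 ± 41.0 CPM). The log2 fold change was 1.16 (SE 0.34, adjusted p = 0.0955). It passed the study's thresholds, which ask for a log2 change of more than 0.58 in size with a p under 0.05 before adjustment, and not the adjusted one. DESeq2 gave an adjusted p of 0.0269. The Ls174 libraries held 145, 148 and 158 CPM without and 180.0, 227 and 204 CPM with HME (150.4 ± 7.09 and 203 ± 23.3 CPM). These groups too did not overlap, with 0.43 as the log2 fold change (SE 0.18, adjusted p = 0.364), a size under the study's limit. The responses differed by -0.70 (SE 0.39, adjusted p = 0.474).

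A near-identical gene copy, MAP1LC3B2, was listed with 1611 counts against 7222 for MAP1LC3B, so that reads may be split between them and both values are uncertain. MAP1LC3B2 measured 37.1, 18.1 and 15.8 CPM in HepG2 controls and 55.0, 84.8 and 107 CPM with HME (log2 fold change 1.80, SE 0.42, adjusted p = 0.0498). This call was lost without HepG2 control 3 (adjusted p = 0.116), HME 1 (0.0781), HME 2 (0.140) or HME 3 (0.186), with library size (0.0695) or upper-quartile scaling (0.0567), with the filter of 10 counts (0.0569), and with its most-counted region alone (0.0538). Summing the pair, an alternative chosen after the data were seen, gave a log2 fold change of 1.25 in HepG2 (adjusted p = 0.0832) and 0.43 in Ls174 cells (adjusted p = 0.351).

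GABARAPL2, the other ATG8 member, measured 153, 30.5 and 93.8 CPM in HepG2 controls and 82.3, 139 and 120.1 CPM with HME. The Ls174 libraries held 44.3, 118 and 139 CPM without and 135, 142 and 155 CPM with HME. The low value in each line was the control that stands apart, at 0.247 and 0.344 times the mean of the other 2. The log2 fold changes were 0.33 (SE 0.49, adjusted p = 0.722) and 0.51 (SE 0.36, adjusted p = 0.563), and without those controls they were -0.05 and 0.17.

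**Figure D2:**
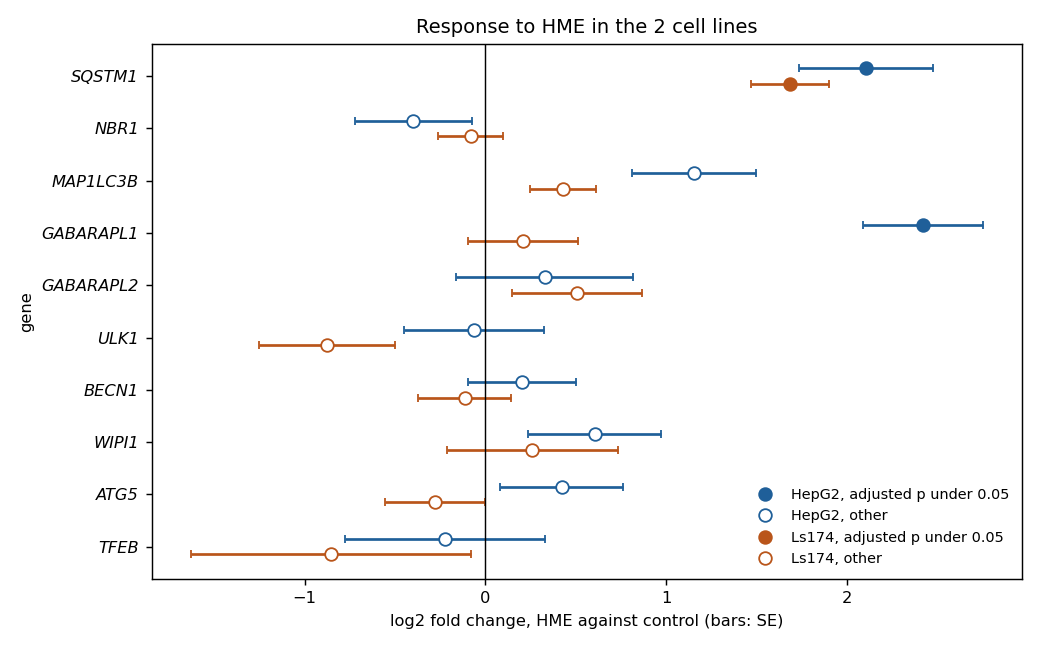
Log2 fold change of each gene, HME against control, in HepG2 (blue) and Ls174 cells (orange), with bars of 1 SE and filled points for an adjusted p under 0.05 by edgeR. SQSTM1 was filled in both lines and GABARAPL1 in HepG2 cells, where its point lay at 2.42 against 0.21 in Ls174 cells.

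ULK1, the kinase at the start of the pathway, did not pass the test in either line. It measured 41.4, 89.7 and 42.4 CPM in controls and 51.4, 57.6 and 57.7 CPM with HME (log2 fold change -0.06, SE 0.39, adjusted p = 0.942). Without HepG2 control 2 the value was 0.475 (adjusted p = 0.230), with every treated library above both other controls. The Ls174 values were 131, 52.2 and 52.5 CPM without and 46.6, 43.0 and 38.8 CPM with HME. All treated Ls174 libraries lay below all controls, and the log2 fold change of -0.88 (SE 0.37, adjusted p = 0.364) passed the study's thresholds and not the adjusted one. This size rested on Ls174 control 1, at 2.50 times the mean of the other 2 controls: without it the log2 fold change was -0.28 (adjusted p = 0.341).

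BECN1 encodes Beclin 1, a regulatory subunit of the lipid kinase complex. It measured 111, 112 and 95.4 CPM in HepG2 controls and 122, 143 and 98.5 CPM with HME. In Ls174 cells the values were 152, 87.8 and 91.9 CPM without and 94.7, 106 and 107 CPM with HME. The groups overlapped in both lines (log2 fold changes 0.20, SE 0.30, and -0.11, SE 0.26, adjusted p = 0.718 and 0.868). Without the controls that stand apart they were 0.30 and 0.20. The gene CNTD1 overlaps the 3′ region of BECN1 on the opposite strand and was listed with 0 counts.

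WIPI1 measured 22.9, 9.34 and 18.2 CPM in HepG2 controls and 21.8, 26.2 and 28.8 CPM with HME. The Ls174 values were 5.90, 5.28 and 3.58 CPM without and 5.83, 7.82 and 3.94 CPM with HME, from 12 to 22 counts per library. The treated and control ranges overlapped in each line (log2 fold changes 0.60, SE 0.37, adjusted p = 0.36, and 0.26, SE 0.47, adjusted p = 0.834).

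ATG5 measured 15.3, 21.8 and 15.8 CPM in HepG2 controls and 27.3, 22.3 and 20.4 CPM with HME. It measured 37.9, 36.6 and 22.5 CPM in Ls174 controls and 30.2, 23.1 and 26.6 CPM with HME. The log2 fold changes had opposite signs, 0.42 (SE 0.34) and -0.28 (SE 0.27), with adjusted p of 0.487 and 0.681, and their difference of -0.69 did not pass the test either (SE 0.43, adjusted p = 0.527).

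TFEB had few counts, 471 in all libraries together against 415 for WIPI1, and the widest spread among controls. It measured 29.3, 49.8 and 8.49 CPM in HepG2 controls and 20.6, 25.1 and 29.4 CPM with HME. In Ls174 cells it measured 15.7, 4.97 and 1.79 CPM without and 5.83, 3.56 and 2.63 CPM with HME, the last from 8 counts. The groups overlapped in both lines, and the log2 fold changes of -0.23 (SE 0.55, adjusted p = 0.833) and -0.85 (SE 0.78, adjusted p = 0.657) turned to 0.43 and 0.27 without the control that stands apart.

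At an adjusted p under 0.05, 2 of the 10 members rose in HepG2 cells, where 2.77% of 11343 tested genes rose, and 0 fell, where 0.538% of genes fell. For the members, the count at an unadjusted p under 0.05 was 3, all higher, beside 22.2% of all genes in either direction. DESeq2 called 3 members higher and 0 lower, beside 1033 of the 11343 genes in either direction. In Ls174 cells 1 of the 10 rose (0.318% of 11319 genes) and 0 fell (0.866% of genes). There 3 had an unadjusted p under 0.05 (13.6% of all genes). DESeq2 called 1 member higher and 0 lower in Ls174 cells, beside 434 of the 11319 genes in either direction. At the study's thresholds 3 members were higher and 0 lower in HepG2 cells, against 11.3% and 10.9% of all genes. In Ls174 cells 1 was higher and 1 lower, against 4.11% and 7.85% of all genes. The ranges of treated and control libraries did not overlap for 3 members in HepG2 cells and 3 in Ls174 cells, where 30.8% and 23.8% of all tested genes did not overlap. The median log2 fold change of all genes was -0.04 in HepG2 and -0.0029 in Ls174 cells.

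**Figure D3:**
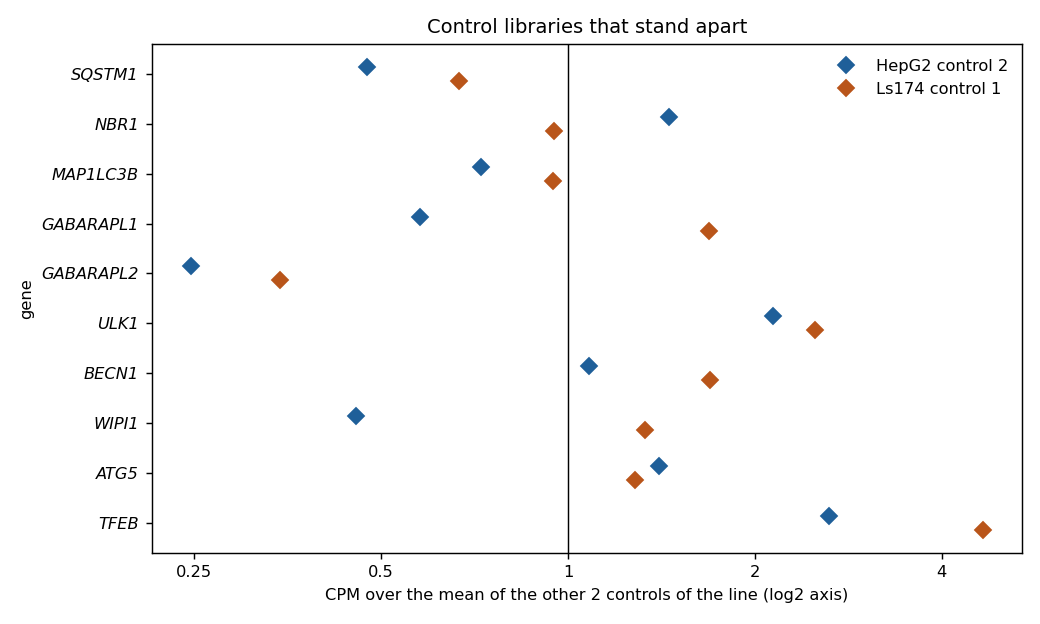
CPM of each gene in the control library that stands apart, divided by the mean of the other 2 controls of its line (log2 axis), for HepG2 control 2 (blue) and Ls174 control 1 (orange). ULK1 and TFEB lay above 2 and GABARAPL2 below 0.5 in both lines, while SQSTM1 lay at 0.475 and 0.667.

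The controls that stand apart deviated the same way in both lines for several members. TFEB was at 2.64 and 4.66 times and ULK1 at 2.14 and 2.50 times the mean of the other controls in HepG2 and Ls174 cells. GABARAPL1 and WIPI1 lay below the other HepG2 controls (0.579 and 0.455) and above the other Ls174 controls (1.68 and 1.33). Without the control that stands apart, the log2 fold changes in HepG2 and Ls174 cells were 1.07 and 0.42 for MAP1LC3B, 2.26 and 0.50 for GABARAPL1, -0.12 and -0.09 for NBR1, 0.37 and 0.42 for WIPI1 and 0.66 and -0.13 for ATG5. None of these 10 values changed its side of the adjusted threshold, and those of the other members are given with each gene. Each had the lowest total count among the controls of its line, 1874122 for HepG2 control 2 and 1977996 for Ls174 control 1. Genes with a count numbered 17044 in the first, against 19354 and 17620 in the other HepG2 controls. The second had 13885, against 17139 and 18324 in the other Ls174 controls. The study also reports a deviating control replicate in both lines. What sets these libraries apart was not tested.

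Between the untreated lines, WIPI1 was the member that passed the test. Its mean was 16.8 ± 6.86 CPM in HepG2 and 4.92 ± 1.20 CPM in Ls174 cells, and the lowest HepG2 value (9.34) lay above the highest Ls174 value (5.90). The log2 fold change, Ls174 against HepG2, was -1.82 (SE 0.50, adjusted p = 0.0272). The gene was thus called lower in Ls174 cells, as were 14.2% of 11907 genes. By edgeR or by DESeq2 0 members were called higher, against 9.33% of genes by edgeR. An unadjusted p under 0.05 was found for 2 members (35.0% of all genes). The calls described next are those of WIPI1. The call was lost without HepG2 control 1 (adjusted p = 0.125), HepG2 control 3 (0.0901), Ls174 control 2 (0.0877) or Ls174 control 3 (0.115), and with library size as the only scaling (0.0545). It was also lost with the replicate number as a block.

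TFEB had a fitted difference as large between the untreated lines but a wider spread, with 29.2 ± 20.7 CPM in HepG2 and 7.50 ± 7.31 CPM in Ls174 cells (log2 fold change -2.06, SE 0.85, adjusted p = 0.116). ATG5 did not overlap and was higher in Ls174 cells (17.6 ± 3.62 against 32.3 ± 8.52 CPM, log2 fold change 0.84, SE 0.39, adjusted p = 0.159). NBR1 did not overlap either and was lower in Ls174 cells (log2 fold change -0.48, SE 0.32, adjusted p = 0.332). In all, 3 members did not overlap between the untreated lines, where 42.6% of all genes did not. SQSTM1 (-0.77, SE 0.38, adjusted p = 0.193) and GABARAPL1 (-0.70, SE 0.41, adjusted p = 0.271) overlapped. Without both controls that stand apart, an alternative chosen after the data were seen, 5 members were called. WIPI1 (-2.25), TFEB (-2.57), GABARAPL1 (-1.19) and SQSTM1 (-0.88) were lower in Ls174 cells and ATG5 (0.90) was higher. That fit called 5625 of all genes, against 2798 in the main fit.

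Within each group the members kept a similar order of abundance. In untreated cells of both lines SQSTM1 came first and MAP1LC3B second, although their ranges overlapped, and ATG5, GABARAPL1, TFEB and WIPI1 took the 4 lowest places, where each neighbour overlapped the next. With HME, SQSTM1, MAP1LC3B and the gene in the third place were separated from each other in both lines. The third place was held by GABARAPL1 in HepG2 cells, up from the eighth in the controls, its range overlapping that of BECN1. In Ls174 cells it was held by GABARAPL2, and GABARAPL1 stayed at the eighth place. Among treated cells SQSTM1, GABARAPL1, MAP1LC3B, ULK1, WIPI1 and TFEB were lower in all Ls174 than in all HepG2 libraries. These 6 of 10 members stand beside 61.0% of 13040 genes that did not overlap between the treated lines, and the comparison was described and not tested.

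Of 54 other autophagy genes listed by role, 48 could be tested in HepG2 cells, and 1 of them, MAP1LC3B2, rose while 0 fell (2.77% and 0.538% of all genes). There 11 had an unadjusted p under 0.05, near the 22.2% over all genes. DESeq2 called 4 higher (UVRAG, ATG16L1, MAP1LC3B2 and TAX1BP1) and 0 lower, beside 1033 of 11343 genes in either direction. Without HepG2 control 2, edgeR called 4 higher (C12orf44, UVRAG, MAP1LC3B2 and TFE3), beside 921 of all genes in either direction. The main fit called 375 of all genes. At the study's thresholds 8 were higher and 3 lower, beside 11.3% and 10.9% of all genes, the last being ATG4C, SNAP29 and ATG9A, and the genes named in these counts other than MAP1LC3B2 were named after their values were seen. The median log2 fold change of the 48 was 0.30, beside -0.04 for all genes.

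In Ls174 cells 50 of the 54 could be tested, and 0 were called in either direction by edgeR or DESeq2, while 5 had an unadjusted p under 0.05 (13.6% of all genes). The study's thresholds were passed by 3 higher genes (TAX1BP1, ATG4D and CALCOCO2) and 1 lower gene (ATG9A), beside 4.11% and 7.85% of all genes, named after their values were seen. Leaving out Ls174 control 1 gave 1 higher (ATG4D) and 1 lower call (ATG9A), and the share over all genes in that fit is not given here. The median was 0.15, beside -0.0029 for all genes. In the interaction 51 were tested and 0 called by edgeR or DESeq2, with 9 at an unadjusted p under 0.05 by edgeR (13.2% of all genes) and 10 by DESeq2, and a median of -0.28 beside 0.04 for all genes.

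By role, the initiation kinase complex beside ULK1 gave log2 fold changes of 0.16 to 0.89 in HepG2 cells over 3 genes, with 0 called. The 7 other genes of the lipid kinase complex of BECN1 ranged from -0.73 to 1.87, and the 8 other enzymes of ATG8 conjugation from -1.67 to 2.19. The 11 other cargo receptors ranged from -0.74 to 1.14, all under the 2.11 of SQSTM1. At the study's thresholds 3 of them were higher, beside 11.3% of all genes. In Ls174 cells the 10 tested receptors ranged from -0.84 to 0.77, again under the 1.69 of SQSTM1. The 3 other transcription factors tested in HepG2 cells had log2 fold changes of 0.68 to 1.54, with 0 called by edgeR. At the study's thresholds 1 of these 3 was higher, beside the same 11.3% of all genes.

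**Figure D4:**
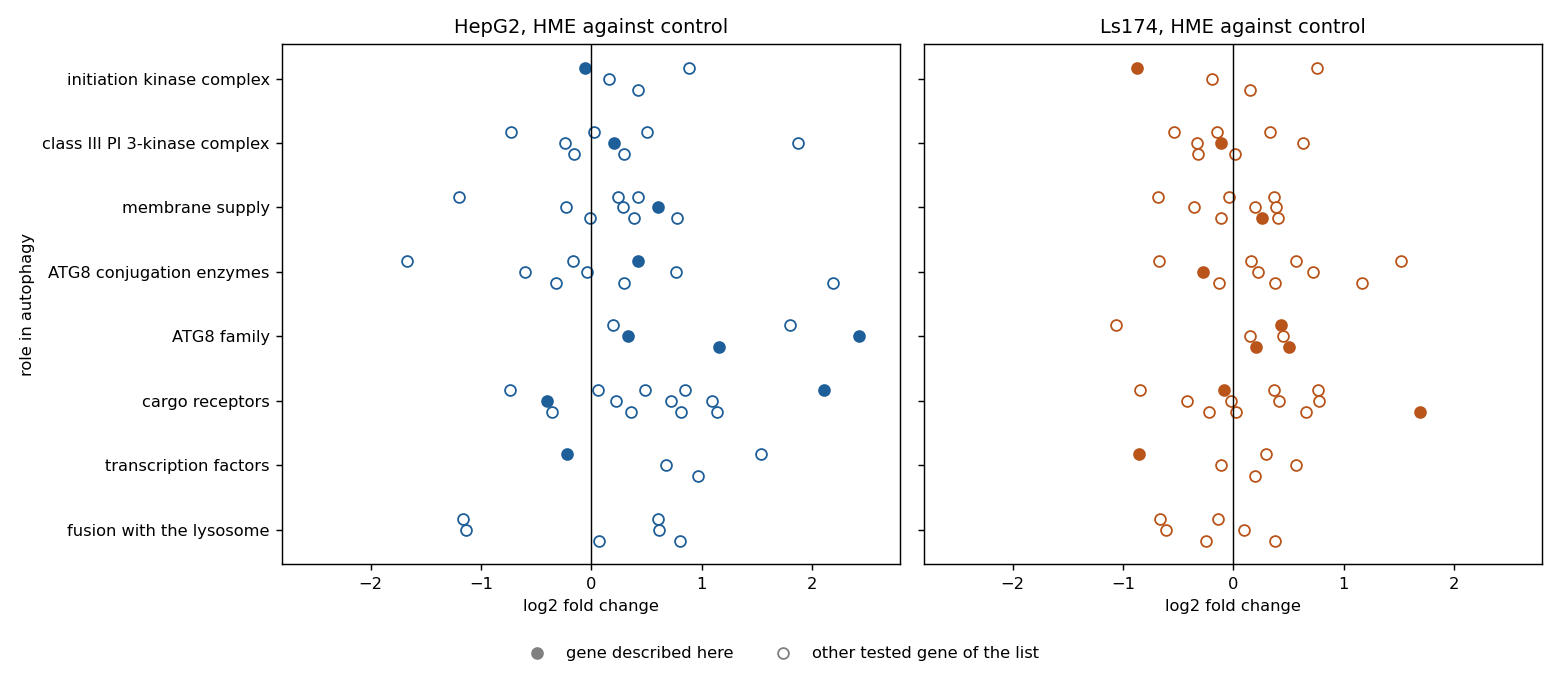
Log2 fold change, HME against control, of every tested gene of the autophagy list by role, in HepG2 (left) and Ls174 cells (right), with filled points for the 10 genes described here. SQSTM1 stood beyond the other cargo receptors in both lines, at 2.11 and 1.69, and GABARAPL1 lay at 2.42 in HepG2 cells.

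Between the untreated lines 48 of the other autophagy genes were tested, of which 1 was higher and 4 lower in Ls174 cells by edgeR. These counts are smaller shares than the 9.33% and 14.2% over all genes. DESeq2 called 3 higher and 8 lower, but its share over all genes is not given here, so no excess is read from this count. OPTN, a cargo receptor of damaged mitochondria and bacteria, measured 62.1, 91.6 and 45.7 CPM in HepG2 controls and 0 counts in all Ls174 controls. Against the floor of 3 counts in the Ls174 control library where it is highest (1.48 CPM), its mean of 66.5 CPM was at least 45.1-fold higher in HepG2 cells. TAX1BP1, a receptor related to CALCOCO2, measured 172 ± 59.7 CPM in HepG2 and 52.4 ± 22.8 CPM in Ls174 controls (log2 fold change -1.74, SE 0.44, adjusted p = 0.0186), a call lost without HepG2 control 1 (0.0643), HepG2 control 3 (0.0564) or Ls174 control 3 (0.0577). BNIP3L, a receptor on mitochondria, was higher in Ls174 cells (8.57 ± 3.85 against 25.3 ± 7.10 CPM, log2 fold change 1.49, SE 0.46, adjusted p = 0.0434), and the call held only without HepG2 control 1 (0.0471) when 1 library was left out (otherwise 0.0698 to 0.135), and not with its most-counted region alone (0.0525). ATG9A (log2 fold change -2.38, adjusted p = 0.00826) and VAMP8 (-1.95, adjusted p = 0.0404) were lower in Ls174 cells, but HepG2 control 2 held 736 and 783 CPM of them against 247 to 253 and 199 to 234 in the other HepG2 controls. Without that library ATG9A was at -1.62 (adjusted p = 0.00279) and VAMP8 at -1.02 (0.0583), and VAMP8 also lost its call without Ls174 control 2 (0.125) or 3 (0.115), or with the filter of 10 counts (0.0546).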

How the data were processed

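Gene expression of 3 control and 3 HME-treated cultures of HepG2 and of Ls174 cells was analysed. The authors prepared 3′ mRNA libraries, sequenced them on an Ion Proton instrument, aligned the reads to hg19 (GRCh37) with Hisat2 and counted them with metaseqR2, and the submitters' processing notes also name Bowtie2 and Trimmomatic. The deposited files hold raw counts as whole numbers for 144910 regions. Here the regions listed under a gene identifier were summed. Total counts ranged from 1790841 to 3656662. The floors concern counting only, while the SD and SE include the spread between replicates. Reads were not marked by molecule.

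Each comparison was fitted with edgeR 4.0.16 (TMM scaling, filterByExpr by group, and a two-sided quasi-likelihood F test) in R 4.3.3, without covariates, on the libraries of the groups compared and, for the interaction, on all 12. Genes were called at a Benjamini-Hochberg adjusted p under 0.05 over all tested genes and, beside this, at the study's thresholds, with edgeR in place of its binomial test. All 10 members passed the filter in every comparison. The SE was derived from the F statistic. The rule for named genes took all members, at most 5 called genes of the pathway list per comparison and the 3 genes nearest to SQSTM1. Likeness was taken on log2 CPM (prior count 2). The members, lists and tests were chosen with earlier results of these data known. Alternatives were DESeq2 1.42.0, an exact binomial test on summed counts, other scalings and filters, the region with the most counts, a replicate block, 1 fit of all libraries, and leaving out each library. The test was tried on simulated data. Python 3.11.15 with numpy 2.4.6, pandas 2.3.3 and matplotlib 3.10.9 made tables and figures. Promoter windows are from RefSeq, and region annotation is from GENCODE on GRCh37. Proteome, chromatin and quantitative PCR data were not analysed here.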

Additional observations from a re-analysis of the deposited data

Results flagged for a closer look

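The response of GABARAPL1 to HME differed between the lines by the test of the difference itself. The log2 fold change in Ls174 cells minus that in HepG2 cells was -2.18 (SE 0.42, adjusted p = 0.0311 by edgeR), from 2.42 in HepG2 and 0.21 in Ls174 cells. It was higher with HME in 3 of 3 HepG2 libraries than in any HepG2 control. It kept its sign in all 21 alternatives and its adjusted p stayed under 0.05 in 10 of them. Its cause was not tested.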

How the results depend on the processing

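The number of members with an adjusted p under 0.05 by edgeR was 2 in HepG2 cells, 1 in Ls174 cells, 1 in the interaction and 1 between untreated lines. The exact binomial test, which has no term for the spread between replicates, gave 4, 4 and 9 in the comparisons of 2 groups. It called 7556 of 11343, 5529 of 11319 and 9149 of 11907 genes in them. Library size as the only scaling gave 0 in the interaction and 0 between untreated lines, where a filter of 1 count gave 2. There 1 fit of all 12 libraries gave 3 and leaving out both controls that stand apart 5, beside 4631 and 5625 of all genes. Leaving out 1 library gave 1 to 2 in HepG2 cells, 0 to 1 in Ls174 cells, 0 to 1 in the interaction and 0 to 2 between untreated lines. No called member changed sign under any alternative run, and of the values of single members 626 kept sign and call, 24 gained and 25 lost a call, and 22 uncalled ones changed sign. Among them ULK1, GABARAPL2 and TFEB changed sign in HepG2 cells, and BECN1 and TFEB in Ls174 cells. Library size scaling moved the median of all genes in HepG2 cells from -0.04 to -0.20. Over all genes, edgeR called 375 in HepG2, 134 in Ls174 and 84 in the interaction, DESeq2 1033, 434 and 380, and the binomial test 7556 and 5529 in the lines. A filter of 1 count gave 1407, 604 and 367, one of 10 counts in every library 188, 148 and 46, and leaving out 1 library 95 to 921, 0 to 979 and 17 to 143. Between untreated lines edgeR called 2798, the binomial test 9149, the filter of 10 counts 912, 1 fit of all libraries 4631 and the fit without both controls 5625.

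Pairing by replicate number was not seen: the correlations of same-numbered deviations from the group means were -0.15, 0.07 and -0.12 in HepG2 and -0.04, 0.006 and -0.06 in Ls174 cells, and -0.38, -0.31 and 0.11 between the controls of the lines. Differently numbered libraries gave -0.155 to 0.264 in HepG2 cells and -0.281 to 0.347 between the controls, the highest for the 2 controls that stand apart. With 3 libraries in a group, these values cannot settle whether libraries were paired. With the replicate number as a block the calls of MAP1LC3B2 in HepG2 cells and of TAX1BP1, BNIP3L and VAMP8 between untreated lines were lost (adjusted p = 0.0636, 0.0718, 0.0931 and 0.131). The counts of members were 2, 0, 0 and 0, and those of all genes 349, 0, 16 and 1890, in the same order of comparisons. The member calls lost were those of SQSTM1 in Ls174 cells, GABARAPL1 in the interaction and WIPI1 between untreated lines.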

Other observations

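TFEB was counted in 2 regions. The region at chr6:41651519-41652336 (GRCh37, minus strand) held 77.1% of its 471 counts and the region at chr6:41654070-41654900 held 22.9%. The second region had 40, 16 and 0 counts in HepG2 controls and 0, 26 and 25 with HME, so that replicates of 1 group differed between 0 and 40 counts. In Ls174 cells it had 0, 0 and 1 counts without HME and 0 in all 3 treated libraries. With the first region alone the log2 fold change of TFEB was -0.39 in HepG2 (adjusted p = 0.703) and -0.81 in Ls174 cells (adjusted p = 0.678).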
